A study of Mus musculus with 10 samples.

Results

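The cytochrome P450 genes described here are those whose name has the form of Cyp, a family number, a subfamily letter or letters and a gene number, and that reached 1 TPM in at least 1 of 10 libraries. TPM is a transcript abundance normalized for gene length and for the library total. Of 35288 gene identifiers, 94 had such a name and 63 of those reached 1 TPM. The other 31 stayed under 1 TPM in every library, and 8 of them were listed at 0 throughout. The members were thus selected on their TPM levels, so their presence at 1 TPM is not a result. The members just inside the limit were Cyp2j13 with a highest value of 1.06 TPM, Cyp3a59 with 1.44 TPM and Cyp4f39 with 1.47 TPM. Just outside lay Cyp2t4 at 0.991 TPM, Cyp7a1, the rate-limiting enzyme of bile acid synthesis, at 0.911 TPM, and Cyp11a1, the cholesterol side-chain cleavage enzyme, at 0.893 TPM.

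The libraries came from small cell lung cancers of genetically modified mice, a neuroendocrine cancer that often spreads to the liver. The Nfib-floxed mice are labelled RPR2;Nfibf/f and carry conditional alleles of Nfib, a transcription factor gene, on the RPR2 background. RPR2 mice lack Rb1, Trp53 and Rbl2 in the tumors, so all groups share these deletions. There were 2 Nfib-floxed liver metastases (mice JHK1398 and JHK1399), 2 RPR2 liver metastases (JHK1373 and JHK1394), 3 Nfib-floxed lung tumors (JHK997, JHK1398 and JHK1399) and 3 RPR2 lung tumors (JHK1373, JHK1394 and JHK1548). Tumors were cut out by hand at morbidity, and the labels give no ages, sexes or driver of recombination. Values are given in the order of the mice in this list.

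P450 enzymes are heme proteins that insert an oxygen atom into their substrates, and most sit in the endoplasmic reticulum, where P450 oxidoreductase (Por) supplies electrons. Families numbered low in the nomenclature mostly handle drugs, toxicants and fatty acids, and others make or break down sterols, bile acids, retinoids and vitamin D. In the mouse, hepatocytes carry the broadest set. Club cells of the lung airway carry a narrower set that activates inhaled toxicants such as naphthalene.

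The tumors were macrodissected, and the markers of neighbouring tissue varied widely between libraries. All 12 neuroendocrine markers were above 0 in all libraries, as were all 18 hepatocyte markers. Hepatocyte markers summed to 173 and 3992 TPM in the Nfib-floxed metastases, 13469 and 13648 TPM in the RPR2 metastases and 220 to 1470 TPM in the 6 lung tumors. The 8 club cell markers summed to 66.8 to 385 TPM in the metastases and 2039 to 60966 TPM in the lung tumors. Scgb1a1, the main secretory protein of club cells, took 5.02% of the JHK1398 Nfib-floxed lung tumor and 5.48% of the JHK1394 RPR2 lung tumor, against 0.136% to 0.965% of the other lung tumors, and these libraries stand apart. Mitochondrially encoded genes took 12.9% of the Nfib-floxed lung tumor of JHK1398, against 4.32% to 7.13% elsewhere. Nfib had 46.1 and 41.3 TPM in the Nfib-floxed metastases against 62.8 and 643 TPM in the RPR2 metastases, and 38.6, 38.0 and 26.5 TPM in Nfib-floxed lung tumors against 85.3, 28.3 and 118 TPM in RPR2 lung tumors, so the lung tumor groups overlapped. A gene total does not check whether the floxed part was removed.

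Each of the 63 members was assigned to the library where it was highest. The highest library was a metastasis for 37 members and a lung tumor for 26. The membership rule used the same highest values, and no share over all genes was taken. This split is therefore not a result about the family. Between 11 and 51 members reached 1 TPM in a library: 11 and 38 in the Nfib-floxed metastases, 50 and 51 in the RPR2 metastases, 22, 24 and 22 in Nfib-floxed lung tumors and 21, 27 and 28 in RPR2 lung tumors. Only 9 members reached 1 TPM in every library. These were Cyp2a5 of the airway group, Cyp39a1 and Cyp46a1 of the oxysterol group, and Cyp20a1, Cyp2u1, Cyp4f13, Cyp4f16, Cyp4f17 and Cyp4f18. All members together summed to 105 and 285 TPM in Nfib-floxed metastases, 696 and 705 TPM in the RPR2 metastases, 240, 361 and 318 TPM in Nfib-floxed lung tumors and 230, 833 and 282 TPM in RPR2 lung tumors. By role, the members were 26 hepatocyte drug-metabolising, 6 hepatocyte fatty acid, 5 airway, 5 bile acid and oxysterol, 4 retinoid and vitamin D, 2 aryl hydrocarbon receptor inducible, 1 steroid hormone and 14 other genes.

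**Figure D1:**
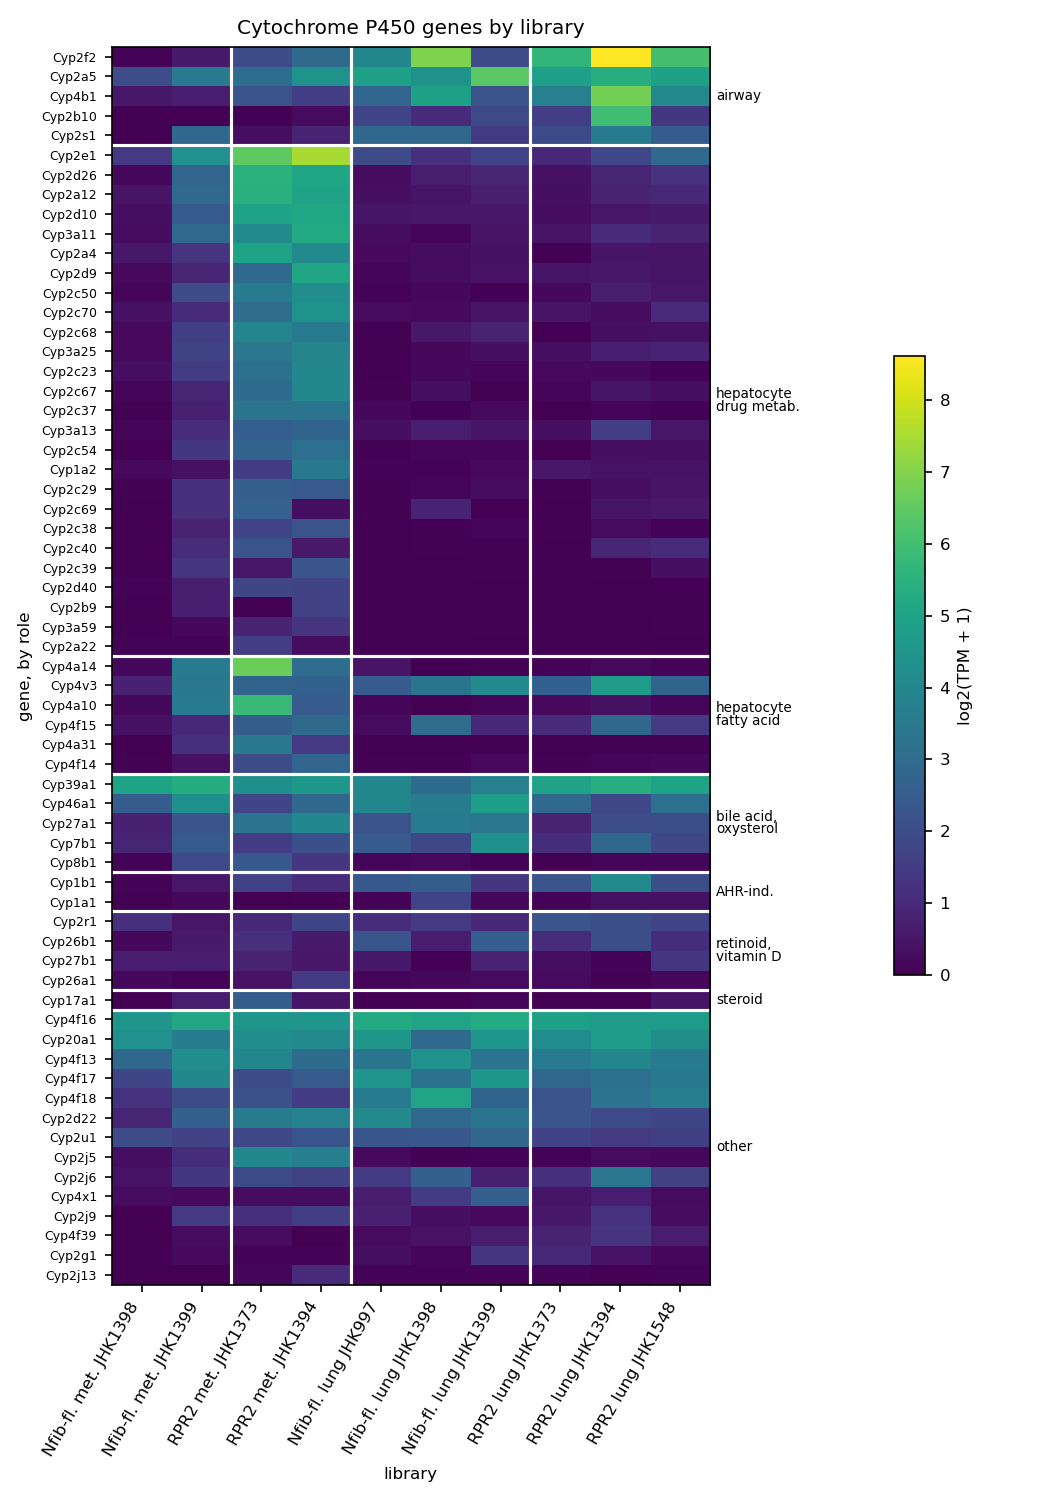
Levels of the P450 members in each library, in columns by group, with colour on a log2(TPM + 1) scale and members in rows by role. The hepatocyte members are brightest in the 2 RPR2 metastases, the airway members in the lung tumors, and Cyp39a1 and Cyp4f16 are present in all columns.

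Differences were tested with limma on log2(TPM + 1) across 15503 genes whose mean reached 1 TPM, in a model of the 4 groups, and p-values were adjusted by Benjamini-Hochberg over all of these genes. Of the 63 members, 44 passed that filter and 19 did not. A gene can pass through the group where it is high, so the 44 are not a fair sample of the family. The 19 untested members peaked between 1.06 TPM (Cyp2j13) and 6.07 TPM (Cyp4f14). Fold changes on this scale understate the change of low genes. In bulk samples, fewer cells of a type and less RNA per cell cannot be told apart.

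In RPR2 mice, hepatocyte P450 genes were far higher in liver metastases than in lung tumors. Of the 44 tested members 19 rose, against a background of 2.04% of all genes tested, and 0 fell, against 3.57% (5.61% in either direction). At an unadjusted p under 0.05, 24 members were higher and 4 lower, beside 2919 of all 15503 genes tested in either direction. The median change was 1.93 on the log2 scale over the members and -0.15 over all genes. The 19 were 16 of the 18 tested drug-metabolising members, with a list median of 3.41, Cyp4a14 and Cyp4a31 of 5 tested fatty acid members, and Cyp2j5. The 5 airway members all had negative values, with a median of -2.83, and none passed.

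Cyp2e1, which oxidizes ethanol and small solvents, had the highest mean of the hepatocyte members. It had 88.2 and 176 TPM in the RPR2 metastases, against 0.926, 2.59 and 6.71 TPM in RPR2 lung tumors. It had 1.66 and 19.3 TPM in the Nfib-floxed metastases, against 2.92, 1.27 and 2.34 TPM in Nfib-floxed lung tumors. The RPR2 groups did not overlap, whereas the Nfib-floxed metastasis of JHK1398 lay among the lung tumors. The RPR2 tissue difference was 5.06 ± 0.83 on the log2 scale (SE, limma adjusted p = 0.00637). The gene is at chr7:140763739-140774987 in GRCm38, on the plus strand. Its upstream window is shown as an example of a hepatocyte promoter, at chr7:140763569-140763818, ending at the base before the start that RefSeq gives, in GRCm38.p6. The gene position is from GENCODE, whose start lies before that of RefSeq, so the end of the window falls within the gene as placed. Capitals mark TATAAA, 31 bases before the start, and 2 matches to CCAAT on the minus strand (ATTGG).
Cyp2e1: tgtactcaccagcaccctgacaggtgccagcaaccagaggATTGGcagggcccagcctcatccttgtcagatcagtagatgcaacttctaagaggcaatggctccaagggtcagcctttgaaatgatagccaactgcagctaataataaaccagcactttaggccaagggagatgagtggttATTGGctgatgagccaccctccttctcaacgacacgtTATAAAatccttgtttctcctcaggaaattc

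The 250 bases before the start were found in the RefSeq table for 50 of the 63 members. TATAAA, read on both strands, lay in 19 of these 50 windows, in 14 of the 27 windows of hepatocyte members and in 13.0% of all 27025 promoters. CCAAT, read likewise, lay in 20 of the 50, in 12 of the 27 and in 34.5% of all promoters. The window of Cyp2f2, the main airway member, held neither string. These are matches of letters only, in a short window.

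Of the 2D genes, Cyp2d26, Cyp2d10 and Cyp2d9 rose as well, and Cyp2d22 did not pass (1.66, limma adjusted p = 0.126). Cyp2d26 had 44.4 and 32.7 TPM in the RPR2 metastases, against 0.304, 0.868 and 1.36 TPM in RPR2 lung tumors. Cyp2d10 had 30.8 and 34.8 TPM there, against 0.213, 0.445 and 0.537 TPM. In these genes the lower metastasis exceeded the highest lung tumor many times over. The changes were 4.45 ± 0.69 for Cyp2d26 and 4.60 ± 0.58 for Cyp2d10 (SE, limma adjusted p = 0.00530 and 0.00208). Cyp2d9, which in mice is more abundant in male than in female liver, had 6.74 and 32.7 TPM, against 0.407, 0.485 and 0.403 TPM in lung tumors, a change of 3.50 ± 0.60 (adjusted p = 0.00749).

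Cyp2a12, a steroid hydroxylase of mouse liver, had 43.6 and 30.0 TPM in the RPR2 metastases, against 0.281, 0.805 and 1.01 TPM in RPR2 lung tumors, with a change of 4.48 ± 0.66 (limma adjusted p = 0.00426). Cyp3a11, the main drug-induced 3A enzyme of mouse liver, had 15.8 and 36.5 TPM against 0.374, 1.07 and 0.791 TPM, with a change of 3.87 ± 0.71 (adjusted p = 0.0104). Cyp2j5, an arachidonic acid epoxygenase of mouse kidney and liver, had 15.3 and 12.2 TPM against 0.0673, 0.193 and 0.138 TPM, with a change of 3.70 ± 0.43 (adjusted p = 0.00143). None of these groups overlapped. The 8 members of the 2C subfamily among the 19 rose by 2.23 (Cyp2c29) to 3.49 (Cyp2c68). Cyp2c68 had 14.1 and 10.7 TPM in the RPR2 metastases against 0, 0.277 and 0.296 TPM in RPR2 lung tumors, and Cyp2c50 had 11.0 and 17.5 TPM against 0.146, 0.651 and 0.448 TPM. Cyp2c23 rose by 3.42 ± 0.49 (adjusted p = 0.00407), and Cyp3a25 of the 3A subfamily by 3.04 ± 0.51 (adjusted p = 0.00694). With mouse as a fixed replicate block Cyp2c54 and Cyp2c29 did not pass, with 2.78 and 2.32 (adjusted p = 0.0635 and 0.0985). The drug-metabolising members that did not pass were Cyp1a2, which metabolises caffeine and arylamines, with a value of 2.05 (adjusted p = 0.0609), and Cyp3a13, with a value of 1.86 (adjusted p = 0.0652).

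The fatty acid omega-hydroxylases of the 4A subfamily, which are targets of the nuclear receptor PPARα in rodent liver, were high in 1 of the metastases. Cyp4a14 had 101 and 7.39 TPM in the RPR2 metastases, against 0.0642, 0.151 and 0.0654 TPM in RPR2 lung tumors, a change of 4.74 ± 1.05 (limma adjusted p = 0.0262). Cyp4a10 had 55.9 and 4.50 TPM against at most 0.293 TPM in the 3 RPR2 lung tumors, and its value of 3.90 ± 1.02 did not pass (adjusted p = 0.0525). Cyp4a31 had 9.89 and 1.69 TPM against 0, 0.0333 and 0.0361 TPM, a change of 2.40 ± 0.61 (adjusted p = 0.0469). Within each gene JHK1373 was the higher RPR2 metastasis. Without that library the log2 value of Cyp4a14 was 2.94 and did not pass (adjusted p = 0.243). Nor did it pass without the RPR2 lung tumor of JHK1373, JHK1394 or JHK1548 (adjusted p = 0.0632, 0.0728 and 0.0619). With mouse as a fixed replicate block it was 4.72 (adjusted p = 0.0605), and Cyp4a31 was 2.41 (adjusted p = 0.136), so neither passed.

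**Figure D2:**
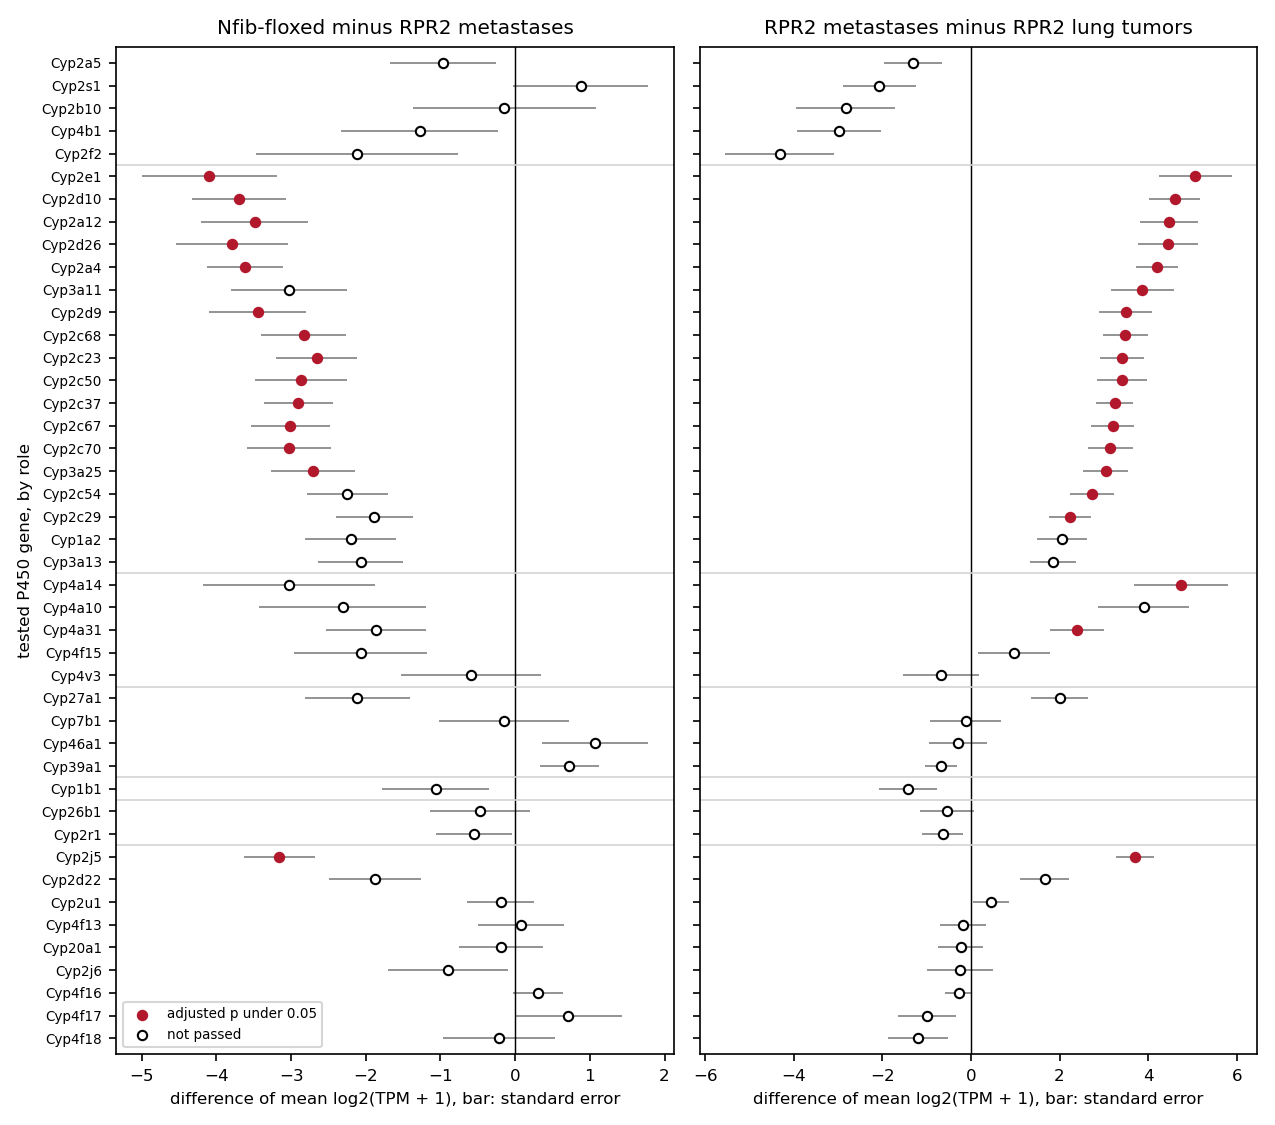
Log2 difference of each tested member in 2 comparisons, Nfib-floxed minus RPR2 metastases (left) and RPR2 metastases minus RPR2 lung tumors (right), with standard errors, by role. Filled points passed an adjusted p of 0.05, and the drug-metabolising members lie below 0 in the left panel and above 0 in the right panel.

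Other markers of liver moved with these genes. The 18 hepatocyte markers summed to 13469 and 13648 TPM in the RPR2 metastases against 305, 980 and 714 TPM in RPR2 lung tumors. Markers of Kupffer cells, the macrophages of the liver, summed to 143 and 93.1 TPM against 10.2, 28.1 and 28.5 TPM. No hepatocyte or Kupffer cell marker was at 0 in these libraries. The part of neighbouring liver in the P450 differences was not tested. The count of 19 was 10 without the RPR2 metastasis of JHK1394, and it was 7 with a filter of 5 TPM, under which fewer genes are tested.

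Between genotypes in the liver, the hepatocyte P450 genes were lower in Nfib-floxed than in the RPR2 metastases. Of the 44 tested members 14 fell, against a background of 0.91% of all genes tested, and 0 rose, against 1.13% (2.04% in either direction). At an unadjusted p under 0.05, 24 were lower and 0 higher, beside 1988 of all 15503 genes tested in either direction. The median over members was -2.07 on the log2 scale and that over all genes was 0. The 14 were 13 of the 18 tested drug-metabolising members, with a list median of -2.96, and Cyp2j5. This comparison shares the RPR2 metastases with the tissue comparison above, so the same libraries enter both.

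Cyp2e1 fell to 1.66 and 19.3 TPM in Nfib-floxed metastases, against 88.2 and 176 TPM in the RPR2 metastases, a change of -4.09 ± 0.90 (SE, limma adjusted p = 0.0485). Cyp2d26 had 0.140 and 6.01 TPM against 44.4 and 32.7 TPM, with a change of -3.79 ± 0.75 (adjusted p = 0.0340). Cyp2d10 had 0.245 and 4.43 TPM against 30.8 and 34.8 TPM, with a change of -3.70 ± 0.63 (adjusted p = 0.0180). In each, JHK1398 was the lowest metastasis, JHK1399 was next, and the genotypes did not overlap. Cyp2a12 had 0.385 and 6.92 TPM against 43.6 and 30.0 TPM, with a change of -3.49 ± 0.72 (adjusted p = 0.0380). Cyp2j5 had 0.242 and 1.18 TPM against 15.3 and 12.2 TPM, with a change of -3.16 ± 0.48 (adjusted p = 0.00857). Cyp2d9 fell as well, with 0.169 and 0.877 TPM against 6.74 and 32.7 TPM (-3.45 ± 0.65, adjusted p = 0.0266), and Cyp3a25 had 0.173 and 2.17 TPM against 9.58 and 14.0 TPM (-2.71 ± 0.56, adjusted p = 0.0380).

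The other fallen members were Cyp2a4, described with the interaction, and 6 of the 2C subfamily. Cyp2c37 had 0.0352 and 0.673 TPM in Nfib-floxed metastases against 8.86 and 8.86 TPM in the RPR2 metastases (-2.91 ± 0.46, limma adjusted p = 0.0121). Cyp2c70 had 0.293 and 1.07 TPM against 7.52 and 19.8 TPM (-3.02 ± 0.56, adjusted p = 0.0250). Cyp2c67, Cyp2c50 and Cyp2c68 had values of -3.01, -2.86 and -2.83, and Cyp2c23 had -2.66, with adjusted p between 0.0198 (Cyp2c67) and 0.0440 (Cyp2c50). Cyp3a11, with 0.216 and 6.76 TPM against 15.8 and 36.5 TPM, did not pass (-3.03 ± 0.78, adjusted p = 0.0797). Nor did Cyp4a14, with 0.128 and 10.4 TPM against 101 and 7.39 TPM, where the genotypes overlapped (-3.03 ± 1.16, adjusted p = 0.265).

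The count of 14 rested on few libraries. It was 1 without the Nfib-floxed metastasis of JHK1398, 1 without the RPR2 metastasis of JHK1394 and 5 without that of JHK1373, and the 1 was Cyp2a4 in both cases. Leaving out a lung tumor bears on the shared spread and on which genes pass the filter. The count was then 9 without Nfib-floxed JHK997 and 8, 7 and 6 without RPR2 JHK1373, JHK1394 and JHK1548. It was 6 without both Scgb1a1-rich lung tumors. It was 0 with a pseudocount of 0.1, with a filter of 5 TPM and in a fit of the 2 groups alone.

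The markers of liver again moved with the P450 genes. The 32 members of both hepatocyte lists summed to 6.10 and 101 TPM in Nfib-floxed metastases, against 541 and 534 TPM in the RPR2 metastases. The 18 hepatocyte markers summed to 173 and 3992 TPM, against 13469 and 13648 TPM. As a share of the marker sum, the P450 sum was 3.53% and 2.53% in Nfib-floxed metastases, against 4.02% and 3.91% in the RPR2 metastases. In lung tumors this share was 4.80%, 3.82% and 1.77% in Nfib-floxed mice, against 3.62%, 4.73% and 3.53% in RPR2 mice. This share ran from 1.77% to 4.80% over the 10 libraries, and the P450 sum from 6.10 to 541 TPM. The range of a share depends on the markers chosen. Against the hepatocyte marker Alb alone, the P450 sum was 23.2% and 8.71% in Nfib-floxed metastases, on either side of the 14.4% and 15.0% in the RPR2 metastases. In lung tumors it ran from 23.0% in RPR2 JHK1548 to 72.4% in Nfib-floxed JHK1398. The sum also mixes genes, since Cyp4v3 gave 4.52 to 26.1 TPM of it in lung tumors. The part of neighbouring liver in these sums was not tested. Kupffer cell markers summed to 11.6 and 16.4 TPM in Nfib-floxed metastases, against 143 and 93.1 TPM in the RPR2 metastases.

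**Figure D3:**
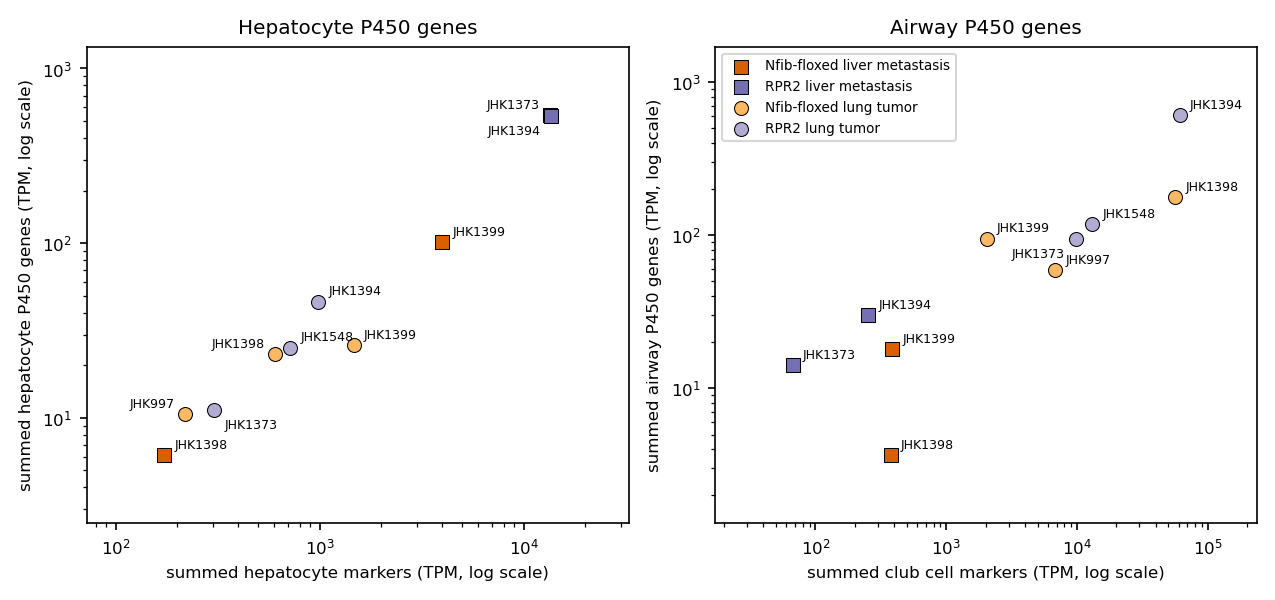
Summed TPM of the P450 members against summed TPM of cell type markers, 1 point per library, on log axes: hepatocyte members against 18 hepatocyte markers, and 5 airway members against 8 club cell markers. Hepatocyte P450 sums run from 6.10 TPM in the Nfib-floxed metastasis of JHK1398 to 541 and 534 TPM in the RPR2 metastases, and the airway sum is highest at 610 TPM in the RPR2 lung tumor of JHK1394. In the Nfib-floxed metastases most of the club cell marker sum is Aldh1a7.

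Relative to albumin (Alb), a secreted protein of hepatocytes, individual P450 genes still differed between metastases. Alb had 26.3 and 1159 TPM in Nfib-floxed metastases, against 3760 and 3555 TPM in the RPR2 metastases. The value of JHK1398 lay within the 20.9 to 110 TPM of the lung tumors, so that library is left out of the counts here. Over the 32 members of the hepatocyte lists and Cyp2j5, 33 genes in all, the level per 1000 TPM of Alb in the Nfib-floxed metastasis of JHK1399 was below both RPR2 metastases for 23, between them for 8 and above both for 2, Cyp4v3 and Cyp2c39. Cyp2e1 had 16.6 TPM per 1000 TPM of Alb in JHK1399, against 23.4 and 49.4 in the RPR2 metastases, and Cyp2a4 had 1.25 against 8.18 and 4.49. In JHK1398 these genes had 63.2 and 17.2, above both RPR2 metastases, so the Nfib-floxed metastases lay on opposite sides. Cyp2d26, with 5.30 in JHK1398 against 11.8 and 9.21, lay below both there. Some of the 33 genes, such as Cyp2a22, Cyp2d40 and Cyp3a59, reached 1 TPM only in RPR2 metastases, and Cyp2j5 was added after its values were seen. The 33 were thus selected partly through the group where they are high, so their order is not a fair count. With 1 library counted on the Nfib-floxed side there is no replicate check of the order.

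The RPR2 metastases of JHK1373 and JHK1394, which held almost the same Alb, differed in P450 composition. Of the 23 of these genes whose mean reached 5 TPM in the RPR2 metastases, 3 were over 2 times higher per Alb in JHK1373, 7 were at less than 0.5 times the level of JHK1394, and 13 lay between, with a median ratio of 0.806. The 3 were the omega-hydroxylases Cyp4a14, Cyp4a10 and Cyp4a31, with ratios of 12.9, 11.7 and 5.53. At the other end lay Cyp1a2 and Cyp2d9, with ratios of 0.173 and 0.195, and Cyp2c70 with 0.360. These are single libraries, and the ratios have no error.

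**Figure D4:**
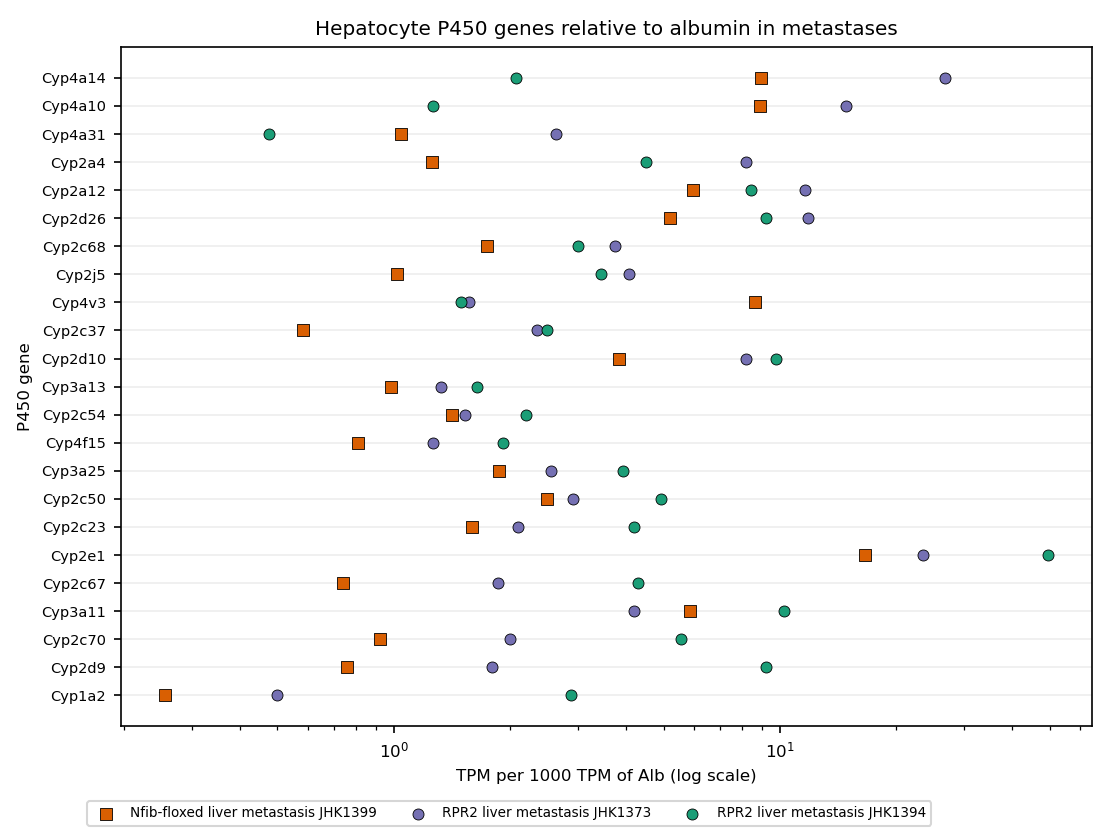
TPM of P450 members per 1000 TPM of Alb, on a log axis, in the Nfib-floxed metastasis of JHK1399 and the 2 RPR2 metastases, 1 point per library and no error bars. Cyp4a14, Cyp4a10 and Cyp4a31 are highest in JHK1373 and lowest in JHK1394. The 23 genes drawn are those whose mean reached 5 TPM in the RPR2 metastases, so their order against JHK1399 is not a fair count.

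Sex is not in the labels, and some liver P450 genes are sex-biased in the mouse. Of the female-biased members, Cyp2a4 had 30.8 and 16.0 TPM in the RPR2 metastases of JHK1373 and JHK1394, Cyp2c69 had 5.49 and 0.252 TPM, Cyp2c40 had 3.68 and 0.498 TPM, and Cyp2b9 had 0 and 2.18 TPM. The male-biased Cyp2d9 had 6.74 and 32.7 TPM. Thus JHK1394 was higher in Cyp2d9 and Cyp2b9, and JHK1373 in the others. The 4 Y-linked genes matched summed to 4.03 and 18.0 TPM in these metastases, and to 1.43 and 132 TPM in the lung tumors of the same mice. In the Nfib-floxed metastases they summed to 2.75 and 1.91 TPM, and in Nfib-floxed lung tumors to 309, 1.46 and 2.67 TPM. The part of sex in the differences between libraries was not tested.

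Within Nfib-floxed mice, 0 of the 44 members passed between liver metastases and lung tumors, against a background of 0.123% of all genes tested, whose calls were all lower. The smallest adjusted p of a member was 0.211. At an unadjusted p under 0.05 there were 9 members, 1 with a higher and 8 with a lower value, beside 1455 of all 15503 genes tested. All 18 tested drug-metabolising members had positive values, with a median of 0.60 on the log2 scale, and all 5 airway members had negative values, with a median of -2.47. The median was 0.13 over all members and -0.05 over all genes. In this comparison the metastases were split, since hepatocyte P450 genes summed to 6.10 TPM in JHK1398 and 101 TPM in JHK1399, against 10.5, 23.1 and 26.1 TPM in the Nfib-floxed lung tumors. The members with the smallest p were Cyp39a1 with 1.58 ± 0.36 (limma adjusted p = 0.211), Cyp2a5 with -2.47 ± 0.65 (adjusted p = 0.278), Cyp2f2 with -3.95 ± 1.24 (adjusted p = 0.365), Cyp4f18 with -2.16 ± 0.68 (adjusted p = 0.367) and Cyp2d22 with -1.66 ± 0.56 (adjusted p = 0.391).

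The interaction asks whether the tissue difference itself differed between genotypes. It passed for 1 of 44 members, Cyp2a4, in the negative direction, against a background of 0.0903% of all genes tested, and for 0 in the positive direction, against 0.49% (0.581% in either direction). Cyp2a4, a steroid 15α-hydroxylase of mouse liver, had 0.454 and 1.45 TPM in Nfib-floxed metastases, 30.8 and 16.0 TPM in the RPR2 metastases, 0.173, 0.218 and 0.322 TPM in Nfib-floxed lung tumors and 0.0431, 0.405 and 0.366 TPM in RPR2 lung tumors. The RPR2 metastases stood clear of all other libraries, and Nfib-floxed metastases stood only slightly above the lung tumors. The interaction was -3.59 ± 0.66 (limma adjusted p = 0.0437). With mouse as a fixed replicate block it was -3.69 and did not pass (adjusted p = 0.214), and it passed in 6 of 20 alternatives, with adjusted p between 0.0286 and 0.316. Leaving out any library other than the Nfib-floxed metastasis of JHK1399 ended the call, with adjusted p from 0.0737 without the Nfib-floxed lung tumor of JHK1398 to 0.168 without the RPR2 metastasis of JHK1373. Its change between metastases of the 2 genotypes was -3.62 ± 0.51 (adjusted p = 0.00597), and that between RPR2 tissues was 4.20 ± 0.47 (adjusted p = 0.00122). An unadjusted p under 0.05 was found for 21 members with a negative interaction, Cyp2a4 included, and for 1 with a positive one, Cyp39a1 with 2.26 ± 0.51 (adjusted p = 0.118). Of all 15503 genes tested, 1500 had such a p in either direction.

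Cyp2a4 has a close copy, Cyp2a5, a coumarin 7-hydroxylase found in airway and olfactory epithelium as well as liver. They lie in 1 gene cluster, at chr7:26307169-26315088 and chr7:26835305-26843548 in GRCm38, both on the plus strand. Cyp2a5 had 3.12 and 10.4 TPM in Nfib-floxed metastases, 7.37 and 20.4 TPM in the RPR2 metastases, 29.2, 20.3 and 84.1 TPM in Nfib-floxed lung tumors and 27.9, 39.7 and 29.6 TPM in RPR2 lung tumors. Its values were highest in lung tumors, where Cyp2a4 was at most 0.405 TPM. The tissue difference of Cyp2a5 did not pass (-1.30 ± 0.65 in RPR2 mice, limma adjusted p = 0.318). Of the 31-base strings in the transcripts of Cyp2a4, 55.9% also occur in Cyp2a5, so the split of reads between them is uncertain.

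The upstream windows of the pair are shown because the genes had their highest values in different tissues, while these sequences scarcely differ. The genes were not tested against each other. Over 249 aligned bases, 245 were alike (98.4%). The differences, with the Cyp2a4 base first, the position from the 5′ end of the Cyp2a4 window and then the Cyp2a5 base, were C19T, T131C, G161A and G205T. The windows are chr7:26306942-26307191 for Cyp2a4 and chr7:26835089-26835338 for Cyp2a5 (RefSeq, GRCm38.p6, plus strand), and capitals mark the differing bases. Both windows run past the gene starts given above, which are from GENCODE and lie before those of RefSeq. Both hold TATAAA, near the end.
Cyp2a4: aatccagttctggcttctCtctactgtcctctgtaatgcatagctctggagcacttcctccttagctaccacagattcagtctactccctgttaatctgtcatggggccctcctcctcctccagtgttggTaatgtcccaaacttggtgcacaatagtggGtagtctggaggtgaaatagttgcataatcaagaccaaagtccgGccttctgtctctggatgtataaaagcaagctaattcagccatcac
Cyp2a5: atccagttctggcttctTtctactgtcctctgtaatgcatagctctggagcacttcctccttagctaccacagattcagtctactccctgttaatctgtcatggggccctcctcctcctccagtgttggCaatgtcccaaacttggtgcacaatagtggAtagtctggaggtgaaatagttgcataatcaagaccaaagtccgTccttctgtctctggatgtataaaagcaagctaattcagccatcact

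The airway members were at their highest in lung tumors. Cyp2f2, which activates naphthalene in mouse club cells, had 0.0606 and 0.537 TPM in Nfib-floxed metastases, 2.91 and 6.85 TPM in the RPR2 metastases, 14.8, 122 and 2.94 TPM in Nfib-floxed lung tumors and 49.9, 388 and 66.7 TPM in RPR2 lung tumors. The RPR2 tissues did not overlap, but the difference of -4.32 ± 1.24 did not pass (limma adjusted p = 0.0726). Of the 21 alternatives run, it passed in a fit of the 2 groups alone (adjusted p = 0.0466). It also passed without the Nfib-floxed lung tumor of JHK1398 (adjusted p = 0.0248) or of JHK1399 (adjusted p = 0.0327). Without both Scgb1a1-rich lung tumors, an alternative chosen after seeing the data, it passed as well (adjusted p = 0.0394). Between lung tumors of the genotypes it was -2.49 ± 1.11 (adjusted p = 0.625), and the genotypes overlapped.

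Cyp4b1, which activates 4-ipomeanol in lung, had 0.456 and 0.574 TPM in Nfib-floxed metastases, 3.60 and 1.93 TPM in the RPR2 metastases, 6.04, 29.4 and 3.55 TPM in Nfib-floxed lung tumors and 12.3, 110 and 15.4 TPM in RPR2 lung tumors. Its RPR2 tissue difference was -2.98 ± 0.96 and did not pass (limma adjusted p = 0.108). Without both Scgb1a1-rich lung tumors, the alternative chosen after seeing the data, it was -2.01 and passed (adjusted p = 0.0460). Cyp2b10, a target of the receptor CAR (Nr1i3), had 61.3 TPM in the JHK1394 RPR2 lung tumor and at most 2.70 TPM in every other library. Cyp2s1, a P450 of epithelia outside the liver, had 0.0217 and 6.46 TPM in Nfib-floxed metastases, 0.256 and 0.801 TPM in the RPR2 metastases, 6.58, 6.10 and 1.75 TPM in Nfib-floxed lung tumors and 2.84, 10.5 and 4.67 TPM in RPR2 lung tumors.

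The 5 airway members summed to 3.66 and 18.0 TPM in Nfib-floxed metastases, 14.2 and 30.1 TPM in the RPR2 metastases, 59.0, 178 and 95.1 TPM in Nfib-floxed lung tumors and 94.9, 610 and 118 TPM in RPR2 lung tumors. The 8 club cell markers summed to 376 and 385 TPM in Nfib-floxed metastases, 66.8 and 254 TPM in the RPR2 metastases, 6773, 56116 and 2039 TPM in Nfib-floxed lung tumors and 9764, 60966 and 13118 TPM in RPR2 lung tumors. Both sums were highest in the RPR2 lung tumor of JHK1394, with that of the Nfib-floxed lung tumor of JHK1398 next. The club cell gene Retnla was at 0 in the metastases of JHK1398 and JHK1373. The part of airway cells in the airway P450 values was not tested.

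Between Nfib-floxed and RPR2 lung tumors, 0 of the 44 members passed in either direction, against a background of 0%, since no gene passed by limma. An unadjusted p under 0.05 was found for 1230 genes and for 6 members, 4 with a higher and 2 with a lower value. The median was -0.14 on the log2 scale over members and -0.10 over all genes. The smallest p belonged to Cyp39a1 with -1.54 ± 0.32 (limma adjusted p = 0.595). After it came Cyp2d22 with 1.45 ± 0.50, Cyp46a1 with 1.49 ± 0.58, Cyp2u1 with 0.91 ± 0.37 and Cyp27a1 with 1.41 ± 0.58 (adjusted p between 0.595 and 0.606).

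Cyp39a1 and Cyp46a1 act in sequence on cholesterol. Cyp46a1 is the 24-hydroxylase known from neurons, and Cyp39a1 is the 7α-hydroxylase of 24-hydroxycholesterol. Cyp39a1, at chr17:43667425-43751431 in GRCm38, had 30.6 and 39.1 TPM in Nfib-floxed metastases, 18.4 and 23.0 TPM in the RPR2 metastases, 14.4, 7.16 and 12.4 TPM in Nfib-floxed lung tumors and 30.3, 40.6 and 30.96 TPM in RPR2 lung tumors. The Nfib-floxed lung tumors were thus the lowest 3 libraries, and their range did not overlap that of any other group. Their mean was 11.3 ± 3.75 TPM (SD, n = 3), against 33.9 ± 5.73 TPM in RPR2 lung tumors (SD, n = 3), but the comparison across all genes did not pass. Cyp46a1, at chr12:108334381-108362234, had 4.73 and 19.0 TPM in Nfib-floxed metastases, 2.52 and 6.38 TPM in the RPR2 metastases, 14.3, 11.6 and 27.1 TPM in Nfib-floxed lung tumors and 6.66, 2.57 and 7.96 TPM in RPR2 lung tumors. Its lung tumor groups did not overlap, with Nfib-floxed tumors higher, and this did not pass either (adjusted p = 0.595).

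The remaining sterol members had lower means over the libraries than these genes. Cyp27a1, the mitochondrial sterol 27-hydroxylase, had 0.736 and 3.85 TPM in Nfib-floxed metastases, 8.67 and 15.3 TPM in the RPR2 metastases, 3.55, 11.0 and 9.34 TPM in Nfib-floxed lung tumors and 0.752, 3.09 and 3.24 TPM in RPR2 lung tumors. Cyp7b1, an oxysterol 7α-hydroxylase, was highest at 18.9 TPM in the Nfib-floxed lung tumor of JHK1399 and lay between 0.873 and 6.37 TPM elsewhere. Cyp8b1, the sterol 12α-hydroxylase of bile acid synthesis, had 0.0598 and 2.70 TPM in Nfib-floxed metastases, against 4.09 and 1.60 TPM in the RPR2 metastases, and at most 0.151 TPM in lung tumors.

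**Figure D5:**
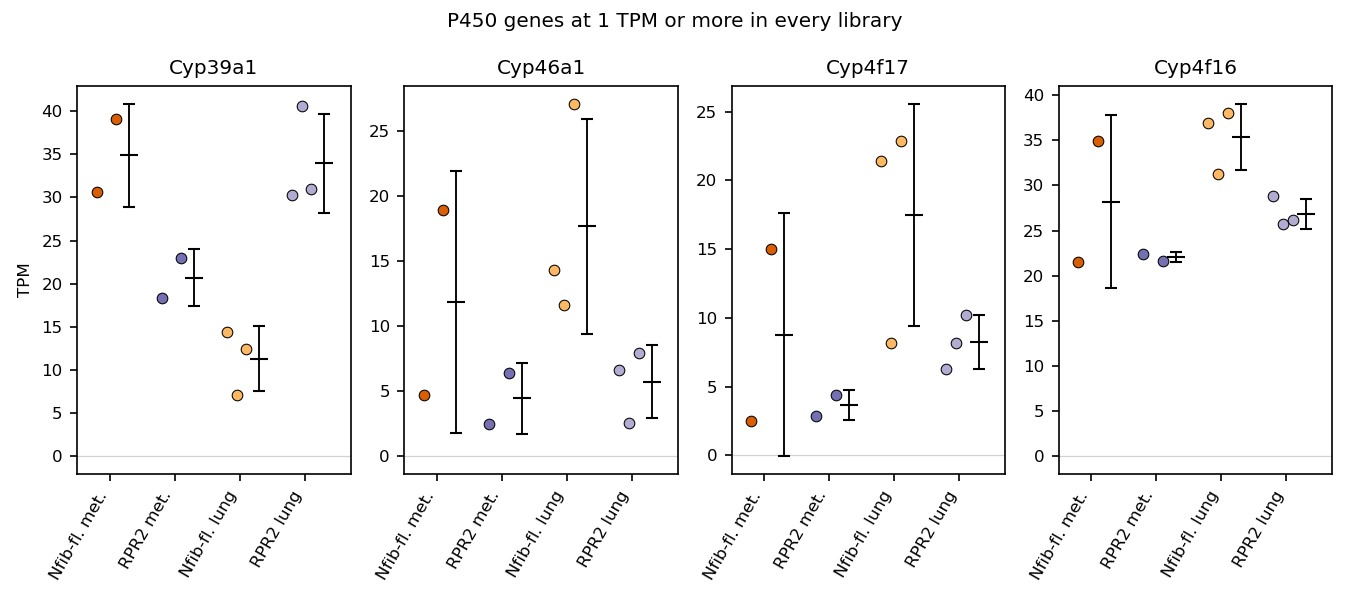
TPM of Cyp39a1, Cyp46a1, Cyp4f17 and Cyp4f16, which reached 1 TPM in every library, with 1 point per library and, beside the points, the group mean with its SD (n = 2 metastases or 3 lung tumors). The Nfib-floxed lung tumors are the lowest for Cyp39a1, at 7.16 to 14.4 TPM, and Cyp4f16 stays between 21.5 and 38.1 TPM throughout.

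Among the other members present in all libraries, Cyp4f16 had the highest mean, at 28.7 TPM, and lay between 21.5 and 38.1 TPM. Cyp4f17 had 2.51 and 15.0 TPM in Nfib-floxed metastases, 2.87 and 4.41 TPM in the RPR2 metastases, 21.4, 8.20 and 22.9 TPM in Nfib-floxed lung tumors and 6.30, 8.14 and 10.2 TPM in RPR2 lung tumors. Its 3 highest libraries, from JHK997 and JHK1399, were also the 3 with the highest Calca, the calcitonin gene of neuroendocrine cells, at 71946 and 68511 TPM in the lung tumors and 57529 TPM in the metastasis, against at most 18196 TPM elsewhere. Cyp46a1 was likewise highest in these 3 libraries. Cyp4f13 lay between 6.52 and 20.2 TPM. Cyp20a1, whose substrate is not established, lay between 6.74 and 26.2 TPM. Cyp4f18, a leukotriene B4 hydroxylase of mouse neutrophils, lay between 1.40 and 31.9 TPM and was highest in the Nfib-floxed lung tumor of JHK1398. Cyp2d22, which was under 1 TPM in 1 library, had 0.858 and 5.29 TPM in Nfib-floxed metastases, 10.6 and 12.6 TPM in the RPR2 metastases, 15.5, 6.71 and 8.97 TPM in Nfib-floxed lung tumors and 3.82, 2.70 and 2.51 TPM in RPR2 lung tumors.

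The inducible, retinoid and steroid members were low. Cyp1b1, induced through the aryl hydrocarbon receptor, had 0.0663 and 0.447 TPM in Nfib-floxed metastases, 2.16 and 1.14 TPM in the RPR2 metastases, 4.19, 4.80 and 1.54 TPM in Nfib-floxed lung tumors and 3.81, 16.0 and 3.20 TPM in RPR2 lung tumors. Cyp1a1, the classical target of that receptor, reached 2.29 TPM in the Nfib-floxed lung tumor of JHK1398 and at most 0.320 TPM elsewhere. Cyp26b1, which clears retinoic acid, was highest at 4.92 TPM in the Nfib-floxed lung tumor of JHK1399. Cyp26a1, of the same function, peaked at 1.74 TPM in the RPR2 metastasis of JHK1394. Cyp2r1, the vitamin D 25-hydroxylase, lay between 0.450 and 3.88 TPM, and Cyp27b1, the 1α-hydroxylase, reached 1.56 TPM. Cyp17a1, the 17α-hydroxylase of steroid synthesis, had 4.83 TPM in the RPR2 metastasis of JHK1373 and at most 0.569 TPM elsewhere.

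The fatty acid members outside the 4A subfamily were mixed. Cyp4v3, a fatty acid omega-hydroxylase, had 0.749 and 9.99 TPM in Nfib-floxed metastases, 5.90 and 5.30 TPM in the RPR2 metastases, 4.52, 9.14 and 16.5 TPM in Nfib-floxed lung tumors and 5.40, 26.1 and 5.79 TPM in RPR2 lung tumors. Cyp4f15 had 0.319 and 0.937 TPM in Nfib-floxed metastases, against 4.74 and 6.81 TPM in the RPR2 metastases, and reached 7.45 TPM in the Nfib-floxed lung tumor of JHK1398. Neither passed in any comparison. Cyp4f14, which was below the filter and not tested, had 0.0269 and 0.308 TPM in Nfib-floxed metastases, 3.04 and 6.07 TPM in the RPR2 metastases and at most 0.153 TPM in lung tumors.

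P450 genes are clustered in the mouse genome, and the clusters held members of different behaviour. Allowing gaps of up to 1000000 bases, 10 clusters held 71 of the 94 named genes and 46 members, and 17 members lay alone. The 2C cluster at chr19:39007019-40187333 held 14 genes, of which 11 were members, and Cyp2c38, Cyp2c39, Cyp2c40 and Cyp2c69 of these were not tested. In RPR2 mice 7 were higher in metastases than lung tumors, against a background of 2.04% of all genes tested. In Nfib-floxed metastases 5 were lower than in RPR2 metastases, against 0.91%. The cluster at chr7:25802475-27158668 held 13 genes and 9 members, among them the airway genes Cyp2f2, Cyp2b10, Cyp2a5 and Cyp2s1 and the liver genes Cyp2a4 and Cyp2a12. The cluster at chr4:115106323-115647723 held Cyp4a14 and Cyp4a10 of the liver beside Cyp4b1 of the airway. Near-identical copies make some levels uncertain. Over 50% of the 31-base strings in a member's transcripts occurred in another gene for 7 of the 63 members: Cyp2c40, Cyp2c67, Cyp2c69, Cyp2c68, Cyp2a4, Cyp2a5 and Cyp2d10. Over 25% were shared for 21 members, and for Cyp2e1 it was 5.83%.

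P450 enzymes depend on electron donors and on heme. Of 7 such redox partners, 0 passed in any of the 5 comparisons, and the same held for 8 genes of heme synthesis. Of all genes tested, 0% to 5.61% passed in a comparison, so 0 in lists this short is no result about them. By limma at an unadjusted p under 0.05, at most 2 redox partners and at most 2 heme synthesis genes were found in a comparison. Of all 15503 genes tested, 1230 to 2919 had such a p. Por had 60.2 and 216 TPM in Nfib-floxed metastases, 43.3 and 42.2 TPM in the RPR2 metastases, 250, 108 and 153 TPM in Nfib-floxed lung tumors and 238, 351 and 87.3 TPM in RPR2 lung tumors. It was lowest in the RPR2 metastases, where hepatocyte P450 genes were highest, with a value of -2.16 ± 0.64 between RPR2 tissues (limma adjusted p = 0.0828). The heme-binding partner Pgrmc1 lay between 133 and 777 TPM. Of the heme synthesis genes, Urod lay between 63.1 and 119 TPM, and Alas1, the first enzyme of the pathway, lay between 34.2 and 221 TPM, highest in the RPR2 lung tumor of JHK1394.

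Of 13 transcriptional regulators of P450 genes, 10 were tested. In the RPR2 metastases 3 rose against RPR2 lung tumors, beside 2.04% of all genes tested, and 0 fell, beside 3.57%. They were the nuclear receptors Nr1h4 (FXR, the bile acid receptor) with 3.19 ± 0.58 (limma adjusted p = 0.00994), Nr1i3 (CAR) with 3.33 ± 0.67 (adjusted p = 0.0163) and Nr1i2 (PXR) with 2.37 ± 0.48 (adjusted p = 0.0170), the last of which senses drugs. Nr1i3 had 0.300 and 7.39 TPM in Nfib-floxed metastases, 14.8 and 16.9 TPM in the RPR2 metastases, 0.315, 0.640 and 0.318 TPM in Nfib-floxed lung tumors and 0.611, 0.463 and 0.986 TPM in RPR2 lung tumors. The median over the 10 was 0.71. None passed in the other 4 comparisons, where 0% to 2.04% of all genes tested did, and where 1 to 4 had an unadjusted p under 0.05. In those comparisons 1230 to 1988 of all 15503 genes tested had such a p. The most abundant of the list, Arnt and Rxra, which pair with the aryl hydrocarbon receptor and with nuclear receptors, lay between 18.4 and 46.9 TPM and between 11.4 and 50.5 TPM and did not pass.

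Of 33 other genes of drug metabolism, 30 were tested. Between RPR2 tissues 11 rose, against a background of 2.04% of all genes tested, and 4 fell, against 3.57%, with a median of 0.39. The 11 included Adh1, alcohol dehydrogenase, with 93.4 and 126 TPM in the RPR2 metastases against 2.72, 6.88 and 6.69 TPM in RPR2 lung tumors, together with Ephx2, Fmo5, Ugt1a1, Ugt2b5, Ugt2b34, Ugt2b35, Ugt2b36, Ces1f, Ces2e and Ces3a. The 4 that fell were Cbr2, a carbonyl reductase abundant in mouse lung, Fmo2, the flavin monooxygenase of lung, Aldh1a7 and Ces1d. Cbr2 had 2.64 and 3.06 TPM in the RPR2 metastases against 159, 1398 and 347 TPM in RPR2 lung tumors.

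Between metastases of the genotypes 7 of these genes fell, against a background of 0.91% of all genes tested, and 2 rose, against 1.13%. The median was -1.72. Adh1 fell to 1.78 and 17.0 TPM in Nfib-floxed metastases, against 93.4 and 126 TPM in the RPR2 metastases. Aldh1a7, an aldehyde dehydrogenase, rose to 366 and 335 TPM, against 26.4 and 23.4 TPM in the RPR2 metastases (3.76 ± 0.43, limma adjusted p = 0.00188). Its lung tumor levels were 190, 124 and 355 TPM in Nfib-floxed and 565, 475 and 429 TPM in RPR2 mice, and its interaction passed with 5.02 ± 0.55 (adjusted p = 0.00629). Ces1d, a carboxylesterase, rose to 175 and 389 TPM, against 25.6 and 26.2 TPM (3.28 ± 0.66, adjusted p = 0.0347). These genes were thus low in the RPR2 metastases alone. Between Nfib-floxed tissues 2 of the 30 passed, against 0.123% of all genes tested. They were Cbr2 with -7.40 ± 0.92 and Fmo2 with -4.88 ± 0.66. Between lung tumors of the genotypes 0 of the 30 passed, against 0%, and 2 had an unadjusted p under 0.05, beside 1230 of all 15503 genes tested.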

How the data were processed

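RNA was selected by its polyA tail and made into NEBNext Ultra II libraries, per the labels' protocols. The submitters' processing notes name bcl2fastq 2.20, Salmon 0.12.0, R 4.1.0 and GRCm38. No settings, annotation version or strandedness were found in them. The authors' deposited table holds TPM per gene. TPM keeps no depth, so depth is unknown and no counting interval is given.

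Members were taken by name and level, and members and lists were chosen with earlier results of these data known. Comparisons used limma 3.58.1 (R 4.3.3) on TPM plus 1 as log2, over the 15503 genes whose mean reached 1 TPM, as 1 model of 4 groups with moderated variances and a mean trend, two-sided, at an adjusted p of 0.05. Replicates are separate mice within a group. The script was tested on simulated data. Named genes were, per comparison, all members past the threshold up to 12 in each direction or else the 5 with the smallest p, the 4 highest members of each role and, in each pathway list, genes past the threshold and the 2 highest. Other members were named after their values were seen, as were the genes set beside Alb, the sex-biased genes and Calca. Positions came from GENCODE M21 and promoters from the RefSeq table.

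Lung tumors and metastases of 4 mice carry the same mouse tag, so they are pairs by design. Their deviations from group means correlated at -0.0229, -0.00800, 0.0426 and 0.0489 across genes. Alternatives changed the pseudocount, the filter, the scaling, the replicate block, the groups fitted and the libraries.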

Additional observations from a re-analysis of the deposited data

Results flagged for a closer look

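For Cyp2a4 the tissue difference differed between genotypes, by the interaction term itself, with a value of -3.59 on the log2 scale (limma adjusted p = 0.0437). The call is not stable: with mouse as a fixed replicate block the value was -3.69 (adjusted p = 0.214), and 14 of 20 alternatives ended it, with adjusted p between 0.0286 and 0.316 over the 20. Cyp2a4 had 0.454 and 1.45 TPM in Nfib-floxed metastases against 30.8 and 16.0 TPM in RPR2 metastases, and at most 0.405 TPM in any lung tumor. Hepatocyte markers summed to 173 and 3992 TPM in the same Nfib-floxed metastases against 13469 and 13648 TPM in the RPR2 metastases, and their part in this result was not tested.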

How the results depend on the processing

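The number of members lower between metastases of the genotypes (14) was 0 with a pseudocount of 0.1, 0 with a filter of 5 TPM, 0 in a fit of the 2 groups alone and 6 without the Scgb1a1-rich lung tumors, an alternative chosen after seeing the data. It ran from 1 to 16 when each library was left out. The number higher between RPR2 tissues (19) was 7 with the filter of 5 TPM and 10 to 21 when each library was left out. The number lower there (0) was 1 in the fit of 2 groups, 2 without the Scgb1a1-rich lung tumors and 0 to 1 with each library left out. Members with a negative interaction (1) numbered 0 with a pseudocount of 0.1, 6 with 5, 4 with no filter, 0 with a filter of 5 TPM, 0 with median centring, 0 with mouse as a fixed replicate block, 0 without the Scgb1a1-rich lung tumors and 0 to 6 with each library left out. Those with a positive interaction (0) numbered 1 with median centring, Cyp39a1 (2.09, limma adjusted p = 0.0464). Fewer genes are tested under the filter of 5 TPM. For the other settings the cause was not tested. With the paired mice as a fixed replicate block, 15 members were higher between RPR2 tissues, and with a random block 20. The fixed block cannot give genotype comparisons, since a mouse has 1 genotype. Of the 39 results for members taken by the naming rule in a comparison, 0 reversed under the alternatives run, but members near 0 in the lung genotype comparison did change sign. Median centring moved the split of positive against negative members between lung tumors from 15 and 29 to 20 and 24, and moved the median of all genes between RPR2 tissues from -0.15 to 0.09. With no depth in the table, what sequencing depth limits is unknown.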

Other observations

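In the RPR2 metastases, genes known as PPARα targets in rodent liver were set beside the 4A genes after their values were seen. Acot1 had 37.5 TPM in JHK1373 and 3.25 TPM in JHK1394, Pdk4 had 15.2 and 2.21 TPM, Cpt1a had 44.7 and 10.8 TPM and Ehhadh had 27.0 and 6.10 TPM. Vnn1 had 7.57 and 2.83 TPM and Fgf21, a hormone of fasting liver, had 8.98 and 2.23 TPM. The 6 named here were higher in JHK1373, as were Cyp4a10, Cyp4a14 and Cyp4a31. Levels of Acot2, Acadm, Fabp4 and Plin2 were also looked at and are not given, so the 6 are not a fair count of such targets. These are single libraries with no replicate check.

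Cyp3a41a, a liver gene whose name falls outside the form used for the members, had 0 and 10.8 TPM in Nfib-floxed metastases, 6.15 and 0.0312 TPM in RPR2 metastases, and was listed at 0 in all 6 lung tumors.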
